A study of Triticum aestivum and Triticum urartu and Aegilops speltoides with 12 samples.

Results

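Seedlings of 2 wild diploid grasses, Triticum urartu and Aegilops tauschii, were compared on 4 of the 12 single-colour NimbleGen arrays of the series, 2 arrays for each species, selected by their titles. T. urartu is the donor of the A genome of bread wheat and Ae. tauschii the donor of its D genome. The levels of the features that differed between them were then followed on 4 further arrays, 2 of a hexaploid line with the 2BS.2RL wheat-rye translocation and 2 of a hexaploid wheat. The remaining 4 arrays held Aegilops speltoides, which is related to the donor of the B genome, and rye. All plants were grown in a chamber and harvested at day 10 as whole seedlings, roots and leaves together. Each array held total RNA pooled from 2 seedlings, and the 2 arrays of a plant are labelled as independent biological replicates. No treatment was applied, and the labels name no accession or cultivar.

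Bread wheat arose when a tetraploid carrying the A and B genomes crossed with Ae. tauschii, which brought the D genome. Most wheat genes therefore exist as related copies, called homoeologues, on the A, B and D chromosomes, and a microarray probe may read one copy or all of them. A transcript that is high in only one diploid donor may be carried into the hexaploid by that genome, lost, or joined by the copies of the other genomes. In T. urartu against Ae. tauschii the levels of 2 donors are set side by side, and the hexaploid arrays show where the combined genome lies between them.

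A feature is one summarised value for a consensus sequence, whose ID begins with the species that the sequence came from. The feature IDs matched no entry of the wheat gene table used here (0 of 56855), so features carry their IDs only, and neither gene functions nor leaf and root markers could be checked. No probe sequences are held in the files used here, so none are shown. Values are log2 intensities of the authors' normalized data, which bring the arrays to nearly one distribution and so hide any change in total transcript. From whole seedlings, fewer cells of a kind and less RNA per cell cannot be told apart. A difference between species may also be one of probe match to each species' sequence, and this was not tested.

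Replicate arrays correlated across features at r = 0.984 in T. urartu and 0.985 in Ae. tauschii, against 0.860 to 0.870 between the species. The median gap between replicate arrays was 0.188 (log2) in T. urartu and 0.181 in Ae. tauschii. The random control feature, read here as background, had an intensity of 126 and 129 on the T. urartu arrays and 124 and 134 on the Ae. tauschii arrays. It was lower on the hexaploid arrays, at 88.4 and 90.6 in the translocation line and 94.2 and 90.3 in wheat. Among the 5731 features built on rye sequences, the arrays labelled translocation were called higher than those labelled wheat in 7 (0.122%) and lower in 50 (0.872%), against 0.331% and 0.311% of all features. This is the reverse of what the rye arm in the line's name would give, and the groups below follow the labels unchanged.

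Calls required a Benjamini-Hochberg adjusted p from limma, over all features, under 0.05 together with a 2-fold difference, which is 1 on the log2 scale. The p-values rest on the spread between 2 arrays of pooled seedlings a group. In T. urartu against Ae. tauschii, 10457 of 56855 features (18.4%) were called, split almost evenly: 5119 were higher in T. urartu (9.00% of all features) and 5338 higher in Ae. tauschii (9.39%). The median difference over all features was -0.03, T. urartu minus Ae. tauschii. At an unadjusted p under 0.05 there were 22291 features. For 32473 features (57.1%) the 95% interval of the difference lay wholly within 1 log2 of no difference.

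**Figure D1:**
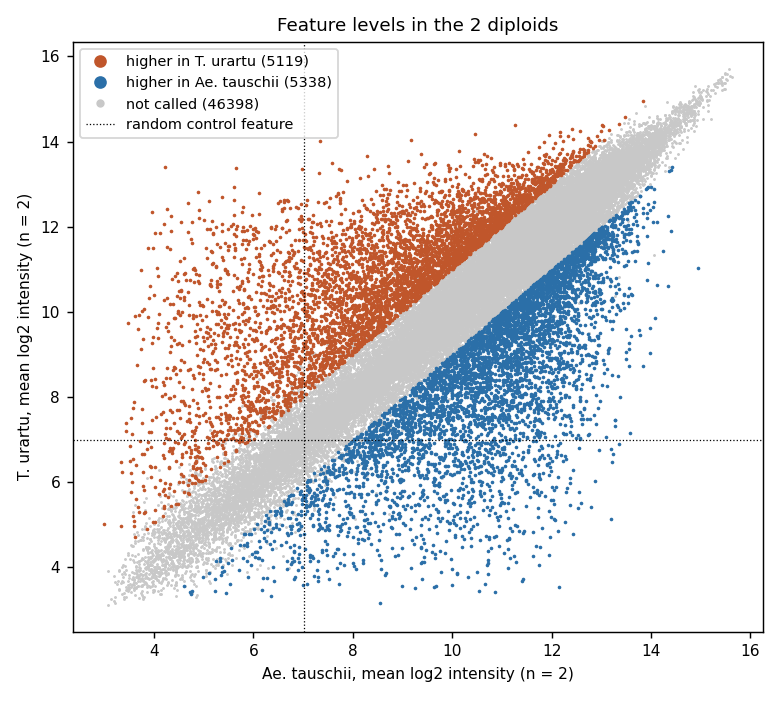
Mean log2 intensity of each of the 56855 features in T. urartu (vertical axis) against Ae. tauschii (horizontal axis), n = 2 arrays each. The 5119 features called higher in T. urartu lie above the diagonal and the 5338 called higher in Ae. tauschii below it, and many of both reach down to the dotted level of the random control feature.

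The features higher in one species were ordinary in level where they were high. The 5119 features higher in T. urartu had a median log2 level of 10.99 in T. urartu and 8.66 in Ae. tauschii. The 5338 features higher in Ae. tauschii mirrored them, with a median of 8.61 in T. urartu and 10.99 in Ae. tauschii. Most differences were moderate: 2883 features higher in T. urartu and 2973 higher in Ae. tauschii differed by a log2 of 1 to 2, and 1712 and 1804 by 2 to 4. At 4 to 6 there were 429 higher in T. urartu and 473 higher in Ae. tauschii, and at 6 or more, 95 and 88. The 2 directions thus had close counts in every size class.

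In many of the differences the dimmer species was at background. In 1108 of the 5119 features higher in T. urartu (21.6%), Ae. tauschii lay at or below its random control on both arrays. In 1100 of the 5338 features higher in Ae. tauschii (20.6%), T. urartu did. The share grew with size by construction, and among differences of 6 or more it reached 91 of 95 and 84 of 88. In 107 features higher in T. urartu and 108 higher in Ae. tauschii the brighter species lay at background too, so these differences rest on dim signal. That leaves 1001 features (19.6%) with T. urartu above background and Ae. tauschii at it, and 992 (18.6%) the other way round. Over all features, 5567 (9.79%) were at background in T. urartu and 5611 (9.87%) in Ae. tauschii.

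Bright features differed least often. Ranked by their mean on the 8 arrays of the other plants, which took no part in the difference, 23.3% of the 14214 dimmest features and 25.3% of the next 14214 were called. Of the following 14213, 17.7% were called, and of the brightest 14214, above a log2 level of 11.92, 7.32% were, with 513 higher in T. urartu and 527 higher in Ae. tauschii.

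The 2 features with the largest fitted differences in each direction, among those whose arrays did not overlap, came from bread wheat sequences. Such sequences made up 75.1% of all features. Taestivum_ESTC049553 had log2 levels of 13.42 and 13.37 on the T. urartu arrays and 4.20 and 4.24 on the Ae. tauschii arrays. It was at least 83.6-fold higher in T. urartu (limma adjusted p = 6.63e-08), a lower bound because Ae. tauschii lay at background. The same feature was as bright in Ae. speltoides, at 13.52 and 13.14, so that Ae. tauschii was the low one of these 3 species. Taestivum_ESTC033927 stood at 12.37 and 12.31 in T. urartu, against 3.95 and 3.96 in Ae. tauschii, at least 40.3-fold higher (adjusted p = 6.63e-08). Here Ae. speltoides was at background as well, at 3.67 and 4.09, and T. urartu was the high one.

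In the other direction, Taestivum_ESTC021374 had 3.49 and 3.58 in T. urartu, at background, and 12.23 and 12.07 in Ae. tauschii. It was at least 35.7-fold lower in T. urartu (adjusted p = 8.01e-08), and it was also at background in Ae. speltoides (4.63 and 5.02). Taestivum_ESTC049858 had 4.67 and 5.61 in T. urartu and 13.29 and 13.12 in Ae. tauschii, at least 74.1-fold lower in T. urartu (adjusted p = 0.00106). It read 10.53 and 10.70 in Ae. speltoides. All 4 features were chosen for a large gap between the 2 species, and in each the hexaploid arrays were bright.

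**Figure D2:**
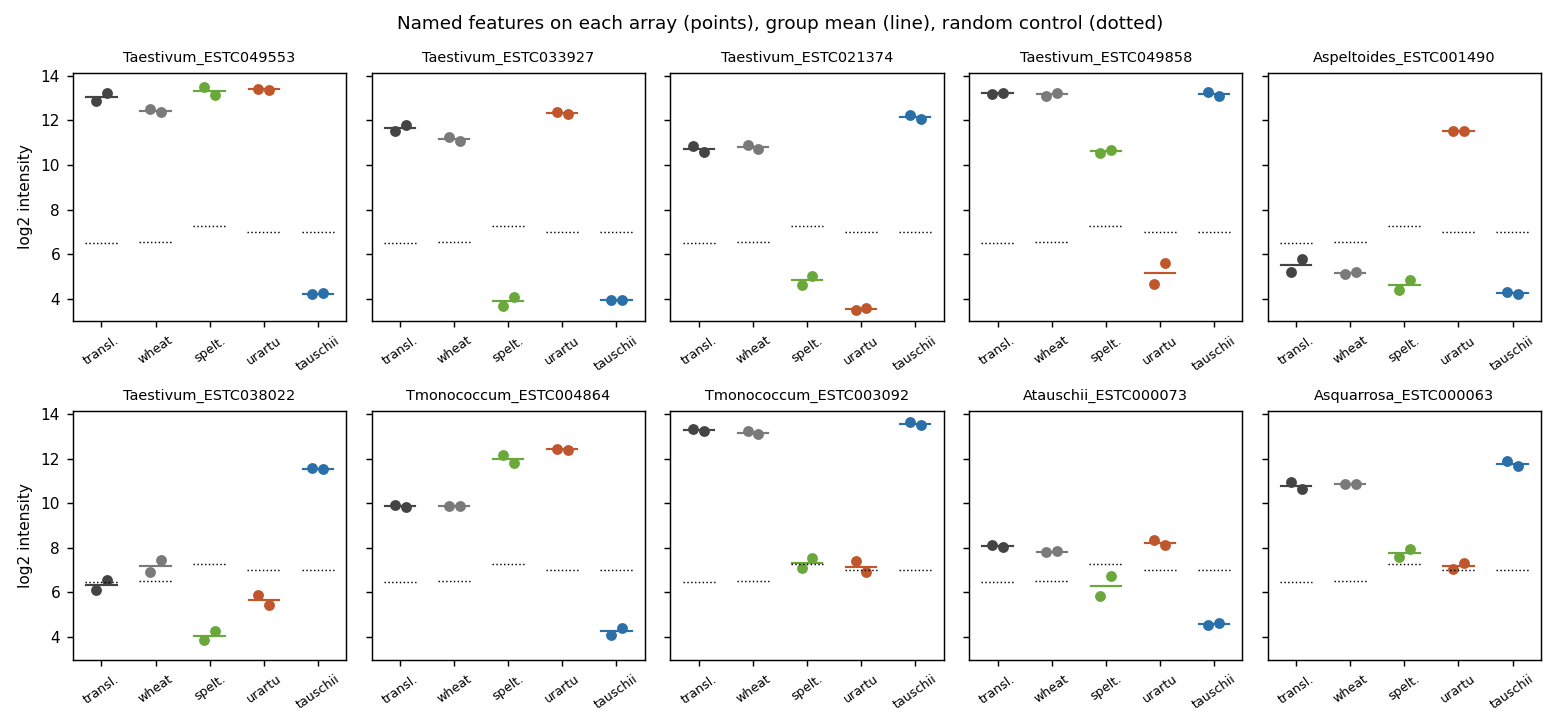
Log2 intensity of 10 named features on each array of the translocation line, hexaploid wheat, Ae. speltoides, T. urartu and Ae. tauschii (points, 2 per plant), with the group mean as a line and the random control as a dotted line. The features were chosen for called differences between T. urartu and Ae. tauschii, so gaps larger than those between replicates follow from the choice. In Aspeltoides_ESTC001490 and Taestivum_ESTC038022 the hexaploid arrays stay near the dimmer of these species.

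The direction of the calls went with the species of the feature's sequence for einkorn and Ae. tauschii. T. monococcum, cultivated einkorn, is a close relative of T. urartu, and of 5724 features from its sequences 755 (13.2%) were higher in T. urartu and 164 (2.87%) higher in Ae. tauschii. Their median difference was 0.14, T. urartu minus Ae. tauschii, and 62.2% lay above 0, against 47.0% of all features. Ae. tauschii sequences, also deposited under the older name Ae. squarrosa, gave the opposite: of 228 features, 9 (3.95%) were higher in T. urartu and 36 (15.8%) higher in Ae. tauschii. Their median difference was -0.22, and the features under each of the 2 names leaned the same way, with 4 and 16 under Atauschii and 5 and 20 under Asquarrosa.

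Features from the other species were closer to balance. Bread wheat sequences, which made up 75.1% of all features, gave 3984 higher in T. urartu (9.33%) and 4673 higher in Ae. tauschii (10.9%). Rye sequences gave 275 (4.80%) and 334 (5.83%) of 5731, and Ae. speltoides sequences 96 (3.86%) and 131 (5.26%) of 2489. With the T. monococcum features left out, 4364 features were higher in T. urartu and 5174 higher in Ae. tauschii, so the even split over all features rested in part on them. These are counts and medians without a test of their own. The sources also differed in brightness: T. monococcum features had a median of 12.15 in T. urartu and 11.89 in Ae. tauschii, against 10.21 and 10.31 for bread wheat features. The part of sequence match in these counts was not tested.

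**Figure D3:**
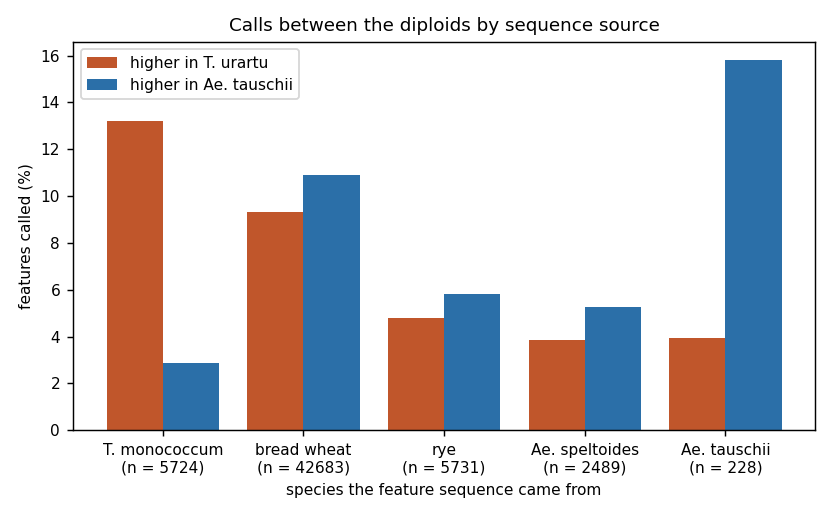
Percentage of the features from each sequence source that were called higher in T. urartu (left bar of each pair) or higher in Ae. tauschii (right bar). T. monococcum features lean to T. urartu (13.2% against 2.87%) and Ae. tauschii features to Ae. tauschii (3.95% against 15.8%), and the other sources are closer to balance.

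Single features ran both ways within a source. Tmonococcum_ESTC004864 had 12.44 and 12.40 in T. urartu and 4.11 and 4.40, at background, in Ae. tauschii, at least 42.5-fold higher (adjusted p = 1e-07). Tmonococcum_ESTC003092 had 7.39 and 6.94 in T. urartu and 13.64 and 13.51 in Ae. tauschii, a log2 difference of -6.41 ± 0.25 (SE, adjusted p = 2.1e-07). An einkorn sequence was thus far brighter in Ae. tauschii there. Among the Ae. tauschii sequences, Asquarrosa_ESTC000063 had 7.06 and 7.31 in T. urartu and 11.88 and 11.68 in Ae. tauschii (-4.60 ± 0.24, adjusted p = 1.11e-06). Atauschii_ESTC000073 went against its source, with 8.37 and 8.12 in T. urartu and 4.55 and 4.62 in Ae. tauschii, at least 2.35-fold higher in T. urartu (adjusted p = 4.12e-06).

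For the hexaploid lines, each feature was set against the mean of T. urartu and Ae. tauschii in log2. The array noise in that contrast is uncorrelated with the noise in the difference between the species. Noise in the choice of features thus did not fix its sign, although both contrasts share the fitted spread of each feature. The scale does bear on the sign, because the mean of the linear levels lies above the mean of logs wherever the species differ. The larger the gap, the further above it lies. A hexaploid at the linear mean would thus lie above the mean of logs in features chosen for a gap. A hexaploid was called above or below the mean at an adjusted p under 0.05 over all features and a log2 difference of at least 0.5, which is how far either species lies from their mean at the smallest called difference. A feature called above the mean lies nearer to the brighter species. The contrasts of both hexaploid lines and of Ae. speltoides share the 4 arrays of T. urartu and Ae. tauschii.

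Both hexaploid lines lay between the donors for most features, and above the mean of logs more often than below. Of the 5119 features higher in T. urartu, the translocation line was called above the mean in 1521 (29.7%) and below in 860 (16.8%), against 11.8% and 13.5% of all features. Hexaploid wheat was above in 1441 (28.2%) and below in 800 (15.6%), against 11.1% of all features in either direction. Of the 5338 features higher in Ae. tauschii, the translocation line was above in 1764 (33.0%) and below in 619 (11.6%), and wheat above in 1677 (31.4%) and below in 550 (10.3%). The shares above the mean of logs thus exceeded the background in both sets and both lines. In features chosen for a gap the linear mean lies further above the mean of logs than in features in general. This excess therefore depends on the scale, and it was not tested against the linear mean. The shares below were over the background for features higher in T. urartu and under it for those higher in Ae. tauschii.

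The size of these counts depended on the normalization, the arrays and the scale. After cyclic loess normalization the translocation line was above in 1779 and below in 588 of the features higher in T. urartu, and above in 1994 and below in 344 of those higher in Ae. tauschii. Wheat was above in 1691 and below in 497, and above in 1926 and below in 282. Scaled to the random control, which put the median of all features at 0.42 in the translocation line and 0.37 in wheat, against -0.10 in both as deposited, calls above the mean grew further. Without wheat replicate 1 or 2, wheat was above the mean in 971 or 1001 and below in 408 or 446 of the features higher in T. urartu, and above in 1143 or 1145 and below in 259 or 301 of those higher in Ae. tauschii. Without translocation replicate 2 the translocation line was below the mean in 483 and 322. Set against the mean of the linear levels of the 2 species and counted without a test, the balance turned: the translocation line was above in 942 and below in 1785 of the features higher in T. urartu, and above in 1028 and below in 1587 of those higher in Ae. tauschii. Wheat was above in 861 and 991 and below in 1775 and 1556. The median difference from the linear mean was -0.19 in the translocation line and -0.21 in wheat for features higher in T. urartu. It was -0.11 and -0.12 for those higher in Ae. tauschii, against -0.14 in both for all features. Against the linear mean of 3 diploids, with Ae. speltoides added, these medians were -0.11 and -0.12, then -0.03 and -0.06. For all features that median was -0.15 in both lines. With values floored at each array's random control and counted without a test, the translocation line was above the mean of logs in 1597 and below in 1297, then above in 1883 and below in 1034, and wheat above in 1546 and below in 1196, then above in 1831 and below in 934.

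Calls above the mean outnumbered calls below 1.77 to 1 in the translocation line and 1.80 to 1 in wheat for features higher in T. urartu. For features higher in Ae. tauschii the ratios were 2.85 and 3.05. Without Ae. tauschii replicate 2 the ratios of the 2 sets were nearly equal in both lines. Without Ae. tauschii replicate 1 the ratios stayed higher for features higher in Ae. tauschii. Without T. urartu replicate 2 the ratios of the 2 sets lay further apart. These fits chose the features anew with 1 array in a species, so the noise of the 2 contrasts was no longer uncorrelated. They therefore cannot show whether the difference between the sets rested on 1 array, and it was not tested.

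On a scale where 0 is the dimmer species and 1 the brighter, the median position of features higher in T. urartu was 0.584 in the translocation line and 0.583 in wheat. For features higher in Ae. tauschii it was 0.640 and 0.629. The hexaploid group mean lay strictly between the species for 72.6% and 74.8% of the features higher in T. urartu, and for 76.2% and 77.1% of those higher in Ae. tauschii. Against the brighter species the median hexaploid level was lower by 0.83 and 0.85 (log2) for features higher in T. urartu, written as -0.83 in the translocation line and -0.85 in wheat. For features higher in Ae. tauschii it was -0.74 and -0.76.

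**Figure D4:**
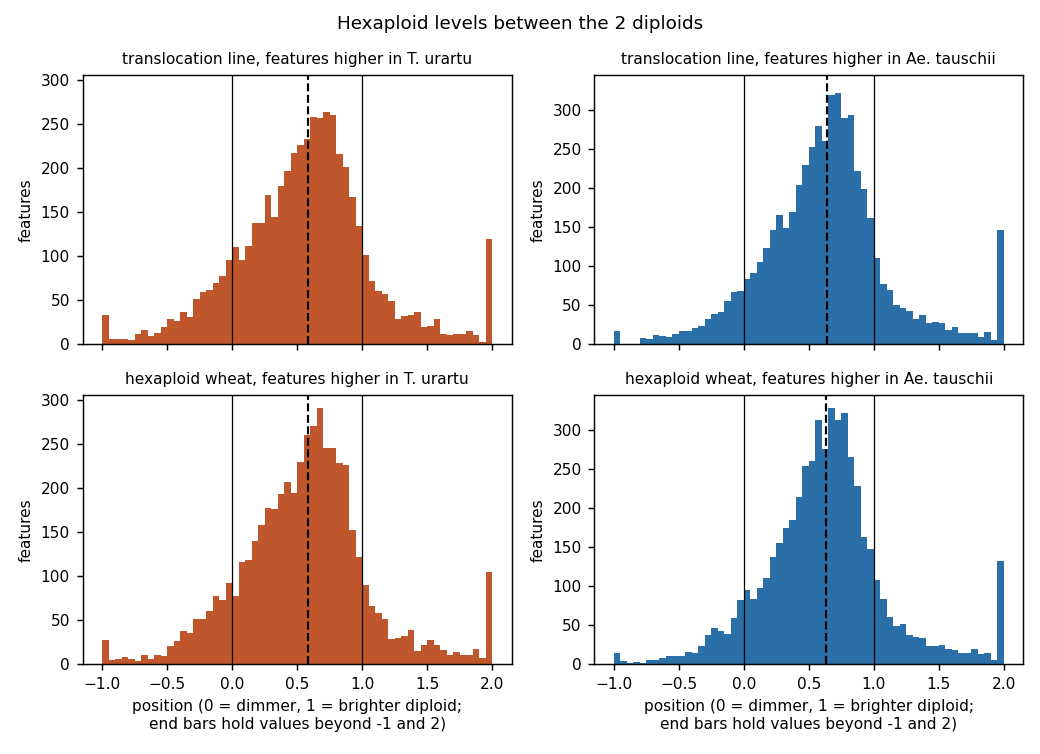
Number of features by position of the hexaploid group mean between the dimmer species (0) and the brighter species (1), for the translocation line (top) and hexaploid wheat (bottom), with the median as a dashed line. Features higher in T. urartu are on the left and those higher in Ae. tauschii on the right, the end bars hold values beyond -1 and 2, and all 4 medians lie between 0.583 and 0.640.

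Relative to the gap between the species, hexaploid levels lay further toward the brighter one where the gap was larger. The linear mean of the 2 species lies at most 1 log2 below the brighter species, so on this scale it too rises with the gap, by arithmetic. Whether the hexaploid course departs from that was not tested. For features higher in T. urartu by a log2 of 1 to 2, the median position was 0.477 in the translocation line and 0.472 in wheat. It was 0.649 and 0.638 at 2 to 4, 0.746 and 0.746 at 4 to 6, and 0.780 and 0.798 at 6 or more. Features higher in Ae. tauschii followed the same course, from 0.546 and 0.543 at 1 to 2 to 0.814 and 0.819 at 6 or more. Among the 88 features higher in Ae. tauschii by 6 or more, the translocation line was called above the mean in 76 and below in 0, and wheat above in 77 and below in 1. Among the 95 higher in T. urartu by 6 or more these counts were 75 and 6, and 72 and 6. In log2 units the distance below the brighter species grew as well: for features higher in T. urartu the median hexaploid level minus T. urartu was -0.72 and -0.73 at 1 to 2, and -1.50 and -1.38 at 6 or more. The level minus Ae. tauschii, for features higher in Ae. tauschii, was -0.64 and -0.63 at 1 to 2, and -1.28 and -1.30 at 6 or more. The zero of the scale is a background value in most of the largest differences. With every value floored at its array's random control, the position at 6 or more was 0.693 and 0.700 for features higher in T. urartu and 0.739 and 0.738 for those higher in Ae. tauschii, against 0.465 and 0.458, and 0.526 and 0.522, at 1 to 2.

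Features at background in one of the species were more often at background in the hexaploids than features in general, though most were above it. Of the 1001 features with T. urartu above background and Ae. tauschii at it, 178 (17.8%) were at background in the translocation line and 199 (19.9%) in wheat, against 6.96% and 7.36% of all features. Of the 992 in the opposite state, 126 (12.7%) and 134 (13.5%) were. When Ae. speltoides was at background too, these were 150 and 152 of 589 features (25.5% and 25.8%) with T. urartu above it and 97 and 101 of 536 (18.1% and 18.8%) with Ae. tauschii above it. In those 589 features the median level was 7.72 in the translocation line and 7.71 in wheat, against 8.81 in T. urartu. In those 536 it was 7.96 and 7.89, against 8.96 in Ae. tauschii. The random control, which sets what counts as background, was itself lower on the hexaploid arrays.

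Taestivum_ESTC021374, at background in T. urartu and Ae. speltoides and bright in Ae. tauschii, was bright in both hexaploids. It had 10.85 and 10.60 in the translocation line and 10.89 and 10.72 in wheat and was called above the mean of T. urartu and Ae. tauschii in both lines (adjusted p = 2.2e-05 and 1.99e-05). No size is given where a species in that mean lay at background. Taestivum_ESTC049553 had 12.89 and 13.23 in the translocation line and 12.52 and 12.37 in wheat, and both lines were called above the mean (adjusted p = 6.27e-07 and 1.46e-06).

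Other features bright in one donor were at or near background in the hexaploids. Aspeltoides_ESTC001490 had 5.22 and 5.79 in the translocation line and 5.10 and 5.21 in wheat, at background in both. It had 11.54 and 11.52 in T. urartu and 4.30 and 4.22 in Ae. tauschii, and both hexaploids were called below the mean of the species (adjusted p = 1.8e-05 and 8.54e-06). Taestivum_ESTC038022 had 6.10 and 6.56 in the translocation line and 6.91 and 7.45 in wheat, against 5.87 and 5.46 in T. urartu and 11.59 and 11.52 in Ae. tauschii. It too was called below the mean in both lines (adjusted p = 0.000302 and 0.00481).

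The hexaploid means lay outside the range of the 2 species in the remaining features, mostly by less than 1 log2. By group means and without a test, the translocation line was at least 1 log2 above both species in 249 of the features higher in T. urartu (4.86%) and wheat in 228 (4.45%), against 4.43% and 4.25% of all features. For those higher in Ae. tauschii these were 269 (5.04%) and 256 (4.80%). At least 1 log2 below both, there were 76 (1.48%) and 56 (1.09%) of the features higher in T. urartu and 29 (0.543%) and 29 (0.543%) of those higher in Ae. tauschii, against 2.07% and 1.57% of all features. The shares above both species were close to those of all features.

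Taestivum_ESTC040346 was bright in both lines, with 12.76 and 12.93 in the translocation line and 11.88 and 11.75 in wheat. It lay at background in T. urartu (6.53 and 6.74) and in Ae. tauschii (3.80 and 4.57), and at 9.0 and 7.90 in Ae. speltoides (adjusted p = 2.94e-06 and 7.3e-06 against the mean). Taestivum_ESTC018142 had 10.21 and 9.95 in the translocation line and 10.99 and 10.85 in wheat, and was at background in T. urartu, Ae. tauschii and Ae. speltoides (adjusted p = 9.55e-07 and 5.1e-07). For both features no size is given, since the species lay at background.

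Taestivum_ESTC030687 was among the features called below the mean in both lines. It had 5.95 and 4.72 in the translocation line and 5.81 and 4.92 in wheat, at background, against 9.17 and 9.03 in T. urartu and 11.59 and 11.89 in Ae. tauschii (adjusted p = 9.49e-06 and 1.04e-05). Tmonococcum_ESTC004628 had 7.58 and 7.28 in the translocation line and 7.56 and 7.45 in wheat, against 12.28 and 12.18 in T. urartu and 11.06 and 11.06 in Ae. tauschii. Its differences from the mean were -4.22 ± 0.12 and -4.14 ± 0.12 (SE, adjusted p = 1.69e-07 and 2e-07). All 4 hexaploid arrays of each feature lay below all 4 arrays of the species.

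Einkorn features higher in T. urartu were called above and below the mean in closer numbers than the others. Of these 755, the translocation line was above the mean in 147 and below in 176, and wheat above in 142 and below in 157. Of the other 4364 features higher in T. urartu, the translocation line was above in 1374 and below in 684, and wheat above in 1299 and below in 643. The median difference from the mean was -0.01 and 0.01 for the einkorn features, and 0.20 and 0.18 for the others. Among the 164 einkorn features higher in Ae. tauschii, where calls above prevailed as in the whole set, the translocation line was above in 54 and below in 23, and wheat above in 54 and below in 21. Of all features, 11.8% were above and 13.5% below in the translocation line, and 11.1% each way in wheat. These counts were not tested against each other.

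Ae. speltoides, standing for the third genome, was called below the mean of the species more often than above it. Of the features higher in T. urartu it was called above the mean of T. urartu and Ae. tauschii in 1146 (22.4%) and below in 1988 (38.8%). Of those higher in Ae. tauschii it was above in 1419 (26.6%) and below in 1908 (35.7%), against 14.3% above and 15.2% below of all features. Without the dimmest 25% of features the lean was smaller, with 915 above and 1223 below among features higher in T. urartu, and 1165 above and 1209 below among those higher in Ae. tauschii. After cyclic loess it was larger, with 1089 above and 2164 below, then 1277 and 1984 in the same order. Scaled to the random control it was larger still, with 845 and 2478, then 1045 and 2290. Taestivum_ESTC016869 was called above, with 12.02 and 12.07 in Ae. speltoides and 5.33 and 5.24 in T. urartu and 6.88 and 6.67 in Ae. tauschii, both at background (adjusted p = 3.72e-08). Taestivum_ESTC049142 was called below, with 4.14 and 4.32 in Ae. speltoides against 10.24 and 9.92 in T. urartu and 11.84 and 11.55 in Ae. tauschii (adjusted p = 3.72e-08).

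Hexaploid levels were higher where Ae. speltoides was high. For features higher in T. urartu, the median position was 0.794 in the translocation line and 0.789 in wheat where Ae. speltoides was called above the mean, and 0.529 and 0.530 where it was called below. The median levels were 10.48 and 10.43 in the first set and 9.96 and 9.92 in the second, although T. urartu itself was lower in the first (10.85 against 11.12). For features higher in Ae. tauschii, the positions were 0.813 and 0.792 with Ae. speltoides above, and 0.569 and 0.570 with it below. Positions and calls both use the levels of T. urartu and Ae. tauschii, so these values are a description without a test.

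**Figure D5:**
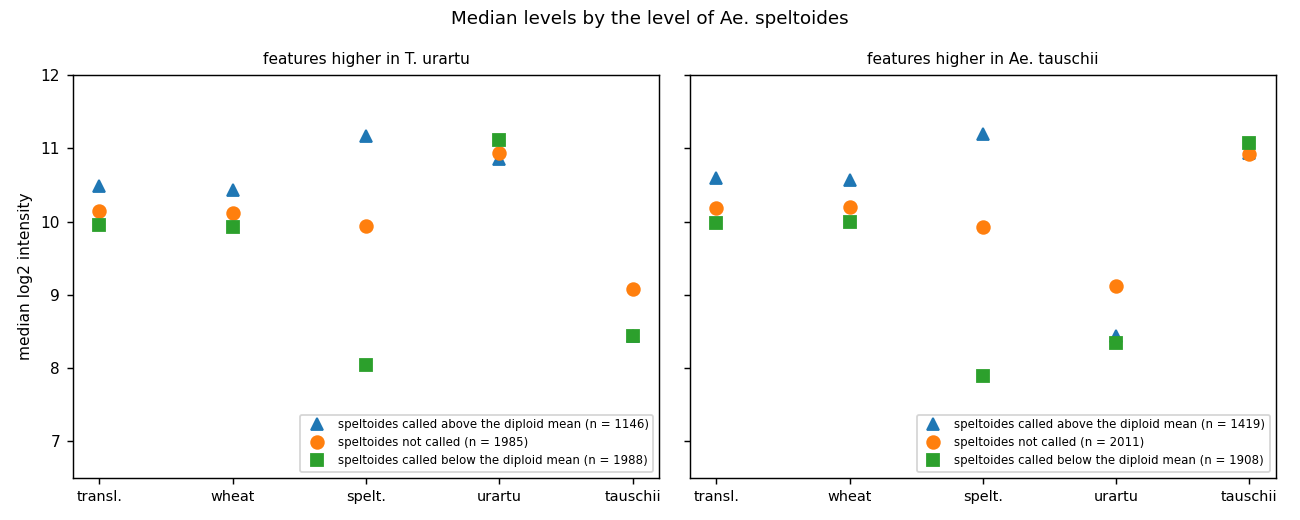
Median log2 intensity in the translocation line, hexaploid wheat, Ae. speltoides, T. urartu and Ae. tauschii for features higher in T. urartu (left) and higher in Ae. tauschii (right), split by the call of Ae. speltoides against the mean of the 2 species. In both panels the hexaploid medians are highest where Ae. speltoides is called above the mean (10.48 and 10.43 on the left, 10.60 and 10.57 on the right) and lowest where it is called below.

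The hexaploid lines differed little from each other on these features. The arrays labelled translocation and wheat lay within 0.5 log2 of each other, by group means, for 89.0% of the features higher in T. urartu and 87.3% of those higher in Ae. tauschii, against 92.2% of all features. Of the features higher in T. urartu, 38 (0.742%) were called higher and 31 (0.606%) lower in the translocation line than in wheat, against 0.331% and 0.311% of all features. Of those higher in Ae. tauschii, 25 (0.468%) were called higher and 37 (0.693%) lower. This contrast shares no array with the comparison of the species. Without wheat replicate 1, wheat replicate 2 or translocation replicate 2, the lower calls among features higher in T. urartu were 13, 15 and 12, and the higher calls 23, 21 and 22. Among features higher in Ae. tauschii the lower calls were 20, 19 and 17, and the higher calls 16 without wheat replicate 1.

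Taestivum_ESTC035470 had 11.90 and 11.82 on the arrays labelled translocation and 4.89 and 4.60, at background, on those labelled wheat. This was at least 40.2-fold higher in the translocation line (adjusted p = 4.37e-05). It stood at 7.40 and 7.06 in T. urartu and at background in Ae. tauschii, so the translocation line exceeded both species. Rye was at background too (5.16 and 5.78). Taestivum_ESTC033160 had 10.10 and 9.96 in the translocation line and 5.0 and 5.08 in wheat, where it lay at background. The arrays labelled translocation were at least 11.3-fold higher (adjusted p = 0.00048). Ae. speltoides had 10.27 and 9.62, and rye was at background (5.12 and 4.55).

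Taestivum_ESTC032471 had 7.10 and 7.26 in the translocation line and 12.07 and 12.33 in wheat (-5.02, adjusted p = 1.02e-05). In T. urartu it had 7.06 and 6.92 and in Ae. tauschii 10.86 and 10.77, so the translocation line was at the level of T. urartu and wheat above both species. Taestivum_ESTC037079 had 4.71 and 4.48, at background, in the translocation line and 9.58 and 9.69 in wheat, at least 8.90-fold lower (adjusted p = 0.0216). Its call did not hold when any one hexaploid array was left out (adjusted p = 0.100 to 0.185).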

How the data were processed

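Per the labels, each of 12 single-colour arrays held Cy3-labelled RNA of 1 plant group, 2 arrays for each of 6 groups. The deposited values are intensity values, and the submitters' processing notes name RMA without a version. Their linear scale was inferred from the values themselves. The 12 value columns of the raw probe table carry codes that match no label and were not used. Signal over background and the number of arrays limit the precision.

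All intensities were above 0 and were taken to log2 without an offset or a filter. The random control and 7 sGFP control features were left out of the tests. A model with a mean for each group was fitted over 12 arrays and 56855 features with limma 3.58.1 in R 4.3.3 (lmFit, eBayes, 6 residual and 2.97 prior degrees of freedom), with p-values adjusted over all features. Where a feature lay at or below the random control on both arrays of the dimmer group, the fold is given as a lower bound against that control. The procedure was tested on simulated data. Alternatives were the arrays in the fit, a replicate block, normalization, a filter on dim features, the variance prior, the fold limit, the mean of the donors and leaving out each array.

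Named features are, for each contrast and within the called features, the 2 highest and 2 lowest whose arrays do not overlap, not all of which are described. Added to these are the largest called above or below the mean in both hexaploids and the largest of each direction from T. monococcum and Ae. tauschii sequences. The members, groups of features and tests were chosen with earlier results of these data known. Lists of named genes were planned and not used, because no feature ID matched a gene. Nothing in the labels ties arrays with equal replicate numbers, whose deviations from group means correlated at -0.06 to 0.21.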

Additional observations from a re-analysis of the deposited data

Results flagged for a closer look

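Signal was also present on the 4 T. urartu and Ae. tauschii arrays in the sGFP control features, which were outside the tests. Of 7 such features, 4 were brighter than the random control (median intensity 127.1) on each of these arrays. They had medians of 2052, 279.9, 560.9 and 604.1. The brightest had 1912 and 2174 in T. urartu and 1931 and 2221 in Ae. tauschii. Another, sGFP_Barcds000007, lay far under the random control, at 14.3 and 12.4 in T. urartu and 13.6 and 10.3 in Ae. tauschii. The random control, read here as background, was thus not the lowest reading on these arrays. The labels do not say what these features should read.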

How the results depend on the processing

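Counts of calls are given here as above and below the mean of T. urartu and Ae. tauschii, first for features higher in T. urartu and then for those higher in Ae. tauschii. Outside the leave-one-out fits, 162 recomputed counts stayed within 1.5 times and 54 moved further, and the 165 recomputed differences of named features kept direction and call. With the replicate block, 10488 features were called between the species, and no count moved by over 1.5 times. Cyclic loess left 497 and 282 features below in wheat and 344 of those higher in Ae. tauschii below in the translocation line. Scaling to the random control, lower on the hexaploid arrays, gave 2756 and 370, then 3078 and 202, in the translocation line, and 2610 and 330, then 2942 and 184, in wheat. Without the dimmest 25% of features, which leaves fewer to call, those below were 467 and 337 in the translocation line, 407 and 301 in wheat, and 1223 and 1209 in Ae. speltoides, which had 915 and 1165 above. The translocation line was then higher than wheat in 15 and lower in 10, then 13 and 14. With the log2 limit doubled, fewer calls follow by construction: 4601 between the species (2236 higher in T. urartu, 2365 higher in Ae. tauschii), 476 below, then 1146 above and 290 below, in the translocation line, and 958 and 414, then 1105 and 249, in wheat. Ae. speltoides had 750 above among features higher in T. urartu, and the translocation line against wheat had 22 and 14, then 15 and 18. Against the linear mean the translocation line had 942 and 1785, then 1028 and 1587, and wheat 861 and 1775, then 991 and 1556. With values floored at the random control, chosen after seeing the data, those below were 1297 and 1034 in the translocation line and, of those higher in Ae. tauschii, 934 in wheat. Against the linear mean of 3 diploids, also chosen then, the translocation line had 1551 below, then 1111 and 1303, and wheat 948 and 1522, then 1062 and 1286. The cause of the cyclic loess changes was not tested.

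Leaving out each array in turn gave 9854 to 10360 calls between the species, 4872 to 5210 higher in T. urartu and 4928 to 5426 higher in Ae. tauschii. The translocation line had 1116 to 1472 above and 483 to 985 below, then 1276 to 1715 and 322 to 736. Wheat had 971 to 1386 above and 408 to 927 below, then 1143 to 1636 and 259 to 649. Ae. speltoides had 967 to 1105 above and 1735 to 1958 below, then 1218 to 1435 and 1653 to 1889. The translocation line against wheat had 21 to 26 higher and 12 to 29 lower, then 16 to 19 and 17 to 26. The single array left in a group is assumed to vary like the others.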

Other observations

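Rye, outside the wheat lineage, and Ae. speltoides together show which of the species stood apart. By group means and without a test, both were nearer the dimmer species in 2213 of the 5119 features higher in T. urartu (43.2%), so that T. urartu was the high one. In 1110 (21.7%) both were nearer T. urartu, and Ae. tauschii was the low one. Of the 5338 features higher in Ae. tauschii, Ae. tauschii was the high one in 2161 (40.5%) and T. urartu the low one in 1423 (26.7%). In the remaining 1796 and 1754 features rye and Ae. speltoides were nearer different species.

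The hexaploids differed between these sets. High, low and alone here mean only that both other plants lay nearer the same species, however slightly. No call or background rule was used for them. Where T. urartu alone was high, the median position between the species was 0.482 in the translocation line and 0.477 in wheat, with 544 and 498 features called below the mean and 502 and 481 above. Where Ae. tauschii alone was low it was 0.737 and 0.740, with 465 and 447 above and 100 and 74 below. For Ae. tauschii alone high the positions were 0.550 and 0.532, and for T. urartu alone low 0.779 and 0.767. Positions use the same T. urartu and Ae. tauschii levels that formed the sets, so no test is attached. Of the 2213 features with T. urartu alone high, 346 came from einkorn sequences, and of the 2161 with Ae. tauschii alone high, 43 did.

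The control feature sGFP_Barcds000006 had intensities of 115.1 and 97.3 on the T. urartu arrays and 448.3 and 94.6 on the Ae. tauschii arrays, so that Ae. tauschii replicate 1 stood apart on it.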
